A study of Arabidopsis thaliana with 4 samples.

Results

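PR1, PR2 and PR5 are the pathogenesis-related genes most often measured as a readout of salicylic acid signalling in Arabidopsis thaliana leaves. They are described here by 3 probe sets of the Affymetrix ATH1 array, out of 22810 on each array: 266385_at for PR1 (AT2G14610), 251625_at for PR2 (AT3G57260, BGL2 in the RefSeq gene table) and 259925_at for PR5 (AT1G75040). The members were chosen by name and with the difference between fnr1 and wild type in each ecotype already known, so that difference is given as a description and was not tested. The probe annotation used here listed 0 of the 3 probe sets, and their pairing with genes was taken as given with the set.

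The series measured above-ground tissue of fnr1 mutant Columbia, wild type Columbia, fnr1 mutant Wassilewskija (Ws) and wild type Ws plants, with 1 array for each. Columbia and Ws are natural accessions of Arabidopsis, and FNR1 encodes a form of ferredoxin-NADP+ oxidoreductase found in leaf chloroplasts, which uses reduced ferredoxin to make NADPH. All plants were 31 days old, had grown on soil of pH 6.5 at 21 °C with 8 h of light and 16 h of dark, and were sampled 4 h into the light. Neither the mutant alleles nor the number of plants behind an array is given in the labels, and FNR1 itself was not analysed, so the genotype labels were taken as they stand.

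Salicylic acid is a plant hormone made in larger amounts when a leaf meets biotrophic pathogens. It acts through NPR1, a coactivator that works with TGA transcription factors at the promoters of pathogenesis-related genes, and the proteins made from these genes are secreted to the cell wall space. PR1 encodes a member of the cysteine-rich CAP protein family, PR2 a beta-1,3-glucanase that cleaves a glucan of fungal cell walls, and PR5 a thaumatin-like protein. The 3 genes belong to unrelated protein families and lie on chromosomes 2, 3 and 1.

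The arrays differed in overall brightness, with a median signal of 27.7 in fnr1 Columbia, 22.1 in wild type Columbia, 27.5 in fnr1 Ws and 28.9 in wild type Ws. Each array was therefore scaled to a common median of 26.5, and signals below are in these scaled linear units unless another scale is named. Of the leaf markers, RCA (rubisco activase) had 7079 to 7366 and SBPASE (a Calvin-Benson cycle enzyme) 3551 to 3991 over the 4 arrays, while the root hair gene EXPA7 had at most 8.50. No flower marker was listed in the annotation. For the older actin control, the signal of the 3' probe set over that of the 5' probe set was 30.3 in fnr1 Columbia, 15.2 in wild type Columbia, 18.8 in fnr1 Ws and 20.3 in wild type Ws, whereas the same ratio of the older GAPDH control was 1.32 to 1.48. For the older ubiquitin control the ratio was 2.59 in fnr1 Columbia, 2.49 in wild type Columbia, 3.28 in fnr1 Ws and 3.25 in wild type Ws. The array with the high actin ratio also had the high PR signals described next, but not the highest ubiquitin ratio. Whether these ratios bear on the PR signals was not tested.

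All 3 PR genes had their highest signal on the fnr1 Columbia array, at least 3.03-fold above the next array. PR1 had a signal of 350 in fnr1 Columbia, against 11.8 in wild type Columbia. In Ws the PR1 signal was 24.2 in fnr1 and 22.4 in wild type. The Columbia pair thus lay 29.6-fold apart and the Ws pair 1.08-fold, and wild type Columbia was the lowest of the 4 arrays. Within its own array the PR1 signal stood at the 93rd percentile of non-control probe sets in fnr1 Columbia, at 35.8 in wild type Columbia, at 48.4 in fnr1 Ws and at 47.1 in wild type Ws.

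PR2, the glucanase gene, had a signal of 317 in fnr1 Columbia, against 21.1 in wild type Columbia. In Ws it had 15.5 in fnr1 and 33.4 in wild type. The direction was opposite in the 2 ecotypes: the fnr1 signal was 15.1-fold that of wild type in Columbia and 0.465-fold in Ws. PR2 stood at the percentile 92.2 in fnr1 Columbia, 45.7 in wild type Columbia, 41.0 in fnr1 Ws and 54.1 in wild type Ws.

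PR5, the thaumatin-like gene, had a signal of 397 in fnr1 Columbia, against 92.2 in wild type Columbia. In Ws it had 131 in fnr1 and 97.9 in wild type. The fnr1 signal was 4.31-fold that of wild type in Columbia and 1.34-fold in Ws, so PR5 was higher in the mutant in both ecotypes, with a narrower gap in Ws. Its percentile was 93.8 in fnr1 Columbia, 75.8 in wild type Columbia, 82.4 in fnr1 Ws and 76.6 in wild type Ws, so that PR5, unlike PR1 and PR2, was in the upper part of every array.

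**Figure D1:**
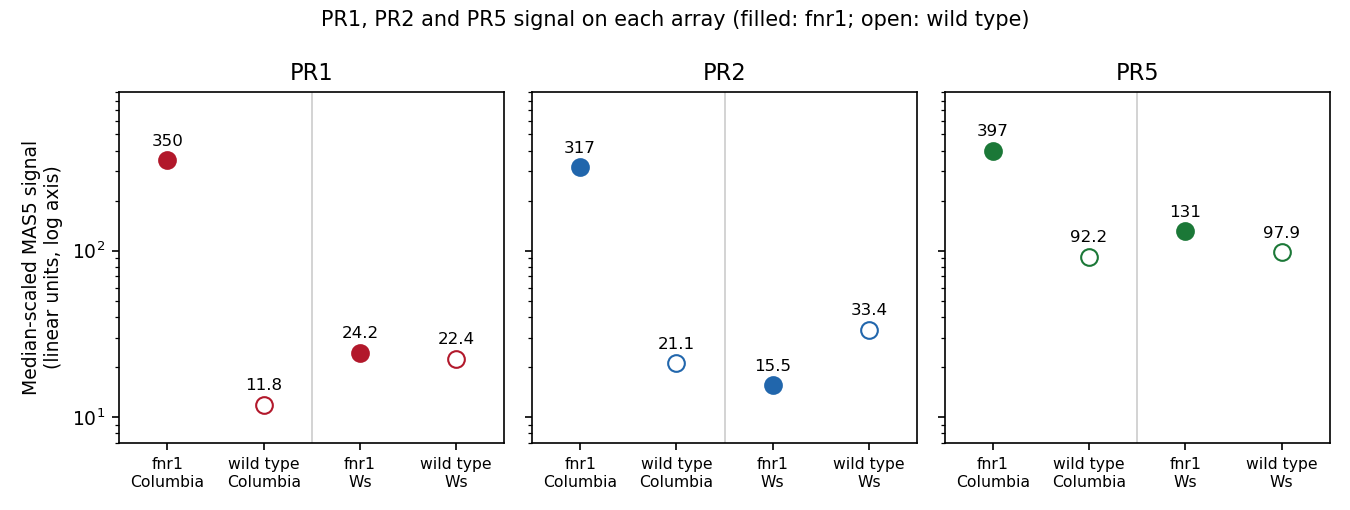
Median-scaled MAS5 signal of PR1, PR2 and PR5 on each of the 4 arrays (log axis, 1 point per array, filled for fnr1 and open for wild type). All 3 genes are highest in fnr1 Columbia (350, 317 and 397), and in Ws the fnr1 point lies close to wild type for PR1, below it for PR2 and slightly above it for PR5.

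The order of the arrays below fnr1 Columbia differed between the genes. The next highest array was fnr1 Ws for PR1, 14.4-fold below fnr1 Columbia, wild type Ws for PR2, 9.49-fold below, and fnr1 Ws for PR5, 3.03-fold below. Among themselves, those 3 lower arrays spanned 2.05-fold for PR1, 2.15-fold for PR2 and 1.42-fold for PR5. With 1 array in each group there is no spread between replicates against which to judge these smaller gaps. The samples are whole tissue, so more cells that express a gene and more RNA per cell cannot be told apart.

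To place these differences among all transcripts, they were taken on the scale of log2(signal + 5.78), where 5.78 is the 25th percentile of all scaled signals. The sum understates the change of a dim probe set. On this scale the log2 difference between fnr1 and wild type in Columbia was 4.34 for PR1, 3.59 for PR2 and 2.04 for PR5. Among the 13648 probe sets that passed a filter on low signal, PR1 ranked 1, PR2 ranked 2 and PR5 ranked 9 from the highest. All 3 members passed that filter, a mean log2 value of at least 4.31, and their means over the 3 arrays other than fnr1 Columbia (4.62 for PR1, 4.82 for PR2 and 6.80 for PR5) lay above it too. A difference of at least 2-fold higher in fnr1 was met by 3 of the 3 members in Columbia and by 0.799% of all tested probe sets. Since the members were chosen with this contrast known, nothing is read from that share.

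In Ws the log2 difference was 0.09 for PR1, -0.88 for PR2 and 0.40 for PR5. At least 2-fold higher there were 0 of the 3 members and 0.315% of all tested probe sets, and at least 2-fold lower were 0 of the 3 and 0.161%. The added constant decides this for PR2, whose scaled signal without it was 2.15-fold lower in fnr1 Ws than in wild type Ws. From the highest, PR1 ranked 4306 and PR5 ranked 913 in Ws, and PR2 ranked 67 from the lowest. The 2 ecotypes share no array, so these are separate pairs.

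**Figure D2:**
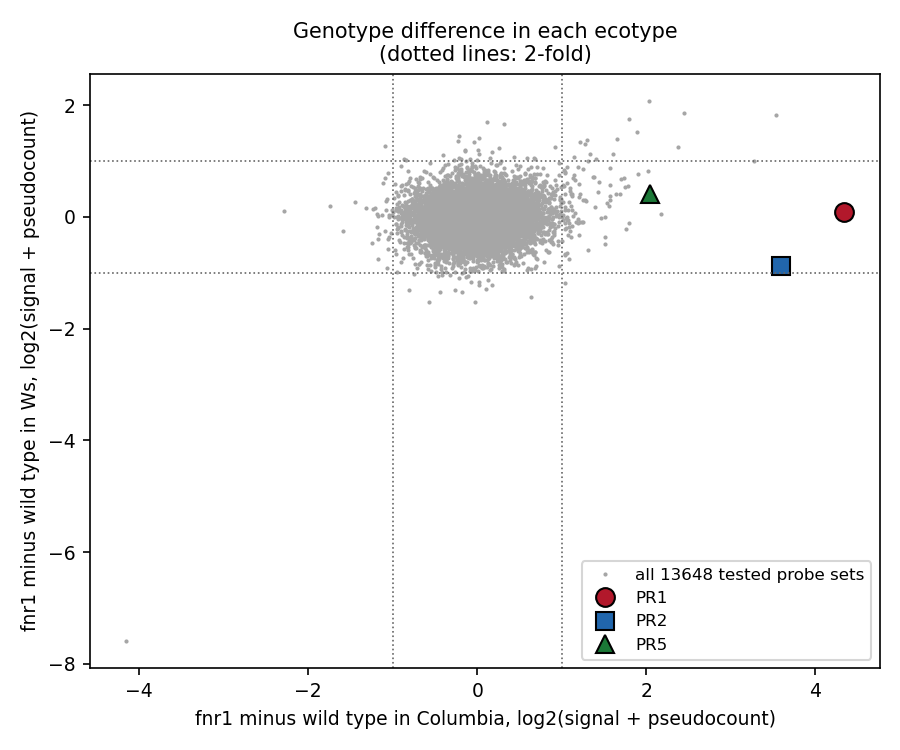
Difference between fnr1 and wild type in Columbia (x axis) and in Ws (y axis), both as log2(signal + pseudocount), for 13648 tested probe sets (grey) and the 3 PR genes (coloured symbols), with dotted lines at 2-fold. PR1 and PR2 lie at the far right at 4.34 and 3.59 in Columbia, while in Ws all 3 PR genes stay, on this scale, within the 2-fold lines, PR2 near the lower one at -0.88.

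The genotype difference in Columbia exceeded that in Ws by 4.25 on the log2 scale for PR1, by 4.47 for PR2 and by 1.64 for PR5. Ranked by this gap, PR2 was 1, PR1 was 2 and PR5 was 20 of 13648. The gap uses all 4 arrays, has no residual degree of freedom and was not tested.

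The ecotypes were also set side by side within each genotype. These values come from the same 4 arrays with which the members were chosen, so they are a description with no test. The log2 difference of Ws from Columbia was opposite in the genotypes for PR1 and PR2, while that of PR5 was very small in wild type. In fnr1 it was -3.57 for PR1, -3.92 for PR2 and -1.56 for PR5. In wild type it was 0.68 for PR1, 0.55 for PR2 and 0.08 for PR5. Among the mutants Columbia had the higher signal, by 14.4-fold, 20.4-fold and 3.03-fold in the same order, and among wild types Ws was 1.90-fold, 1.59-fold and 1.06-fold as high.

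Averaged over the genotypes in an additive limma fit, the difference of Ws from Columbia was -1.44 for PR1, -1.69 for PR2 and -0.74 for PR5. These averages rest on the fnr1 Columbia array: without it the sign turned for all 3 genes, to 0.73 for PR1, 0.11 for PR2 and 0.28 for PR5. The array was designed on the Columbia genome, and whether base differences under the probes lower Ws signals was not tested.

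The relatives of each PR protein were measured by a fixed list of genes per family, and none of the tested relatives was 2-fold higher in fnr1 in Columbia, as its PR gene was. Of 55 listed relatives, 45 had a probe set in the annotation and 16 passed the filter on low signal. At least 2-fold higher in fnr1 in Columbia were 0 of the 16, beside the 0.799% of all tested probe sets, and 0 of 16 were in Ws. The median log2 difference over the 16 was -0.12 in Columbia and -0.22 in Ws, against -0.02 and -0.04 over all tested probe sets. Between fnr1 and wild type over both ecotypes, limma called 0 of the 16 and 0.183% of all tested probe sets. In that fit the 2 ecotypes stand in for replicates of a genotype. A difference held by 1 ecotype alone is averaged with the other and adds to the residual. The fit can therefore miss a pattern like that of PR1, and the count called does not show that a relative lacks it. At an unadjusted p under 0.05 were 4 of the 16 and 6.67% of all.

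Of the 19 measured PR1 relatives, 17 fell below the filter, with signals from 0.32 to 15.4. AT2G19970, the brightest of these 17 and named after its values were seen, had 15.4 in fnr1 Columbia against 2.67 in wild type Columbia, and 12.9 in fnr1 Ws against 14.0 in wild type Ws. The other 2 were tested. AT4G25780, a CAP family gene, had 37.3 in fnr1 Columbia against 82.9 in wild type Columbia, and 47.9 in fnr1 Ws against 63.1 in wild type Ws. Its fitted difference was -0.70 ± 0.21 on the log2 scale (SE, limma adjusted p = 0.395), in the direction opposite to PR1 in Columbia. AT5G66590, of the same family, had -0.19 ± 0.17 (SE, limma adjusted p = 0.892). PRB1, the basic PR1 homologue that neighbours PR1 on chromosome 2, was not listed in the annotation.

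Of the 11 measured PR2 relatives, 6 were tested and their log2 differences ran from -0.57 to 0.14 in Columbia and from -1.04 to 0.09 in Ws. The glycosyl hydrolase family gene AT4G18340 had 18.4 in fnr1 Columbia against 26.5 in wild type Columbia, and 12.3 in fnr1 Ws against 31.3 in wild type Ws (fitted -0.73 ± 0.27, SE, limma adjusted p = 0.62). It was thus lower in fnr1 in both ecotypes, whereas PR2 was lower in Ws and higher in Columbia. AT3G07320, of the same family, had a fitted difference of -0.48 ± 0.19 (SE, limma adjusted p = 0.661). The glucanase genes BG1, next to PR2 on chromosome 3, and BG3, on its other side beyond AT3G57250, were not listed.

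Of the 15 measured PR5 relatives, 8 were tested, with log2 differences from -0.47 to 0.51 in Columbia and from -0.55 to 0.36 in Ws. In Ws the PR5 value of 0.40 lay just above this range, and in Columbia its value of 2.04 lay well above it. The thaumatin-like gene AT4G38660 had 129 in fnr1 Columbia against 97.5 in wild type Columbia, and 169 in fnr1 Ws against 131 in wild type Ws (fitted 0.37 ± 0.17, SE, limma adjusted p = 0.717). AT2G28790 had a fitted difference of -0.27 ± 0.17 (SE, limma adjusted p = 0.823). Between ecotypes limma called 1 of the 16 relatives, beside 8.32% of all tested probe sets: AT5G24620, at -0.63 ± 0.18 in Ws relative to Columbia (SE, limma adjusted p = 0.0422). Its genotype difference was -0.06 (limma adjusted p = 0.978).

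**Figure D3:**
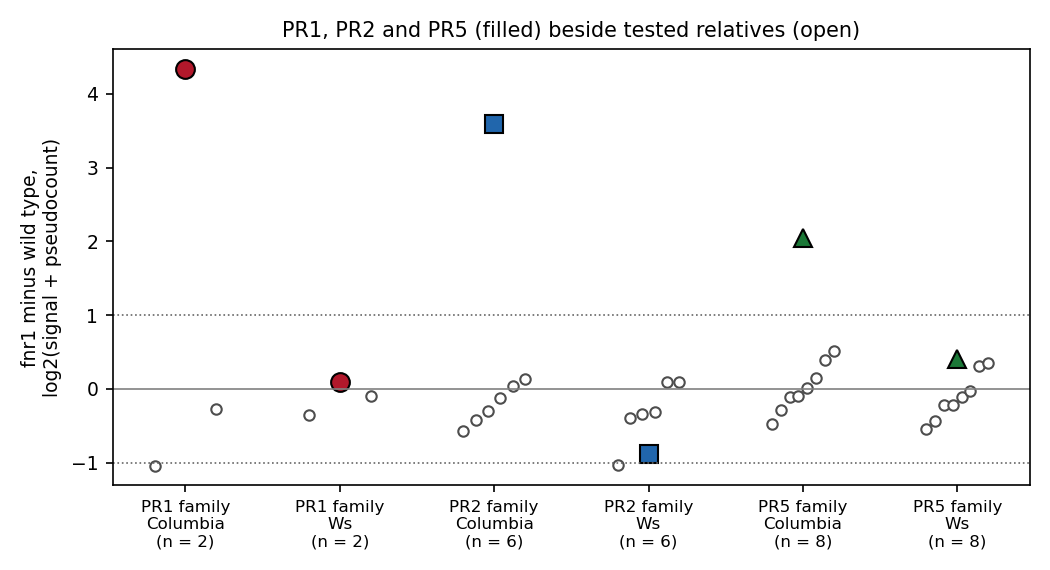
Log2 difference between fnr1 and wild type for PR1, PR2 and PR5 (filled symbols) and their tested relatives (open circles, 2, 6 and 8 genes), in Columbia and in Ws, with dotted lines at 2-fold. In Columbia each PR gene stands above all its tested relatives, which lie between -1.04 and 0.51, and in Ws PR2 lies within the range of its relatives.

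Genes that lie beside the PR genes on the chromosome were also examined. Of the 24 protein-coding genes within 4 genes on either side, 8 had a probe set in the annotation. The filter was passed by 5, 4 of them around PR2 and 1 beyond PR1. Their log2 differences ran from -0.28 to 0.36 in Columbia and from -0.16 to 0.23 in Ws. Around PR2, the transcription factor gene AGL16 had 52.2 in fnr1 Columbia against 58.3 in wild type Columbia, and AT3G57280 had 233 in fnr1 Columbia against 193 in wild type Columbia. AT1G75050, a thaumatin-like gene next to PR5, was below the filter, with 5.75 in fnr1 Columbia and 7.78 in wild type Columbia. None of the 8 neighbours read was thus 2-fold higher in fnr1 Columbia than in wild type Columbia. The others, LURP1 and PRB1 near PR1 among them, were not listed in the annotation and were not read. Only 1 of the 8 neighbours of PR1 and 2 of the 8 of PR5 were listed, and 0 around PR5 were tested. These values therefore do not describe the surroundings of PR1 and PR5.

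Few of the genes that make, sense or transmit salicylic acid could be read through the annotation used here. Whether unlisted probe sets of the arrays measure the others was not examined. Of 71 genes on 5 lists (synthesis, turnover, upstream immune regulators, the NPR1 and TGA module, and WRKY factors), 9 had a listed probe set and 2 passed the filter. None of the 9 synthesis genes, ICS1 among them, was listed. Between fnr1 and wild type limma called 0 of the 2, beside 0.183% of all tested probe sets. At an unadjusted p under 0.05 was 1 of the 2, beside 6.67% of all. This fit can miss a difference held by 1 ecotype alone. Between ecotypes limma called 0 of the 2, beside 8.32% of all, and 0 of the 2 had an unadjusted p under 0.05, beside 20.2% of all. SARD4, an enzyme in the synthesis of the immune signal pipecolic acid, had 57.7 in fnr1 Columbia against 34.1 in wild type Columbia, and 35.2 in fnr1 Ws against 28.5 in wild type Ws (fitted 0.46 ± 0.22, SE, limma adjusted p = 0.749). SAG101, a partner of the immune regulator EDS1, had 21.6 in fnr1 Columbia against 10.7 in wild type Columbia, and 17.7 in fnr1 Ws against 20.8 in wild type Ws (fitted 0.28 ± 0.30, SE, limma adjusted p = 0.92).

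Of the 7 pathway genes below the filter, WRKY53, a transcription factor of leaf senescence and defence, was named after its values were seen. It had 22.2 in fnr1 Columbia against 4.55 in wild type Columbia, and 28.9 in fnr1 Ws against 5.78 in wild type Ws. On the log2(signal + 5.78) scale its difference between fnr1 and wild type was 1.43 in Columbia and 1.58 in Ws. Both wild type signals lie at or below the 25th percentile of all signals, so the sizes are uncertain. The other 6, UGT74F1, UGT76B1, UGT71C3 and BSMT1 of salicylate turnover, the NPR1 relative NPR2 and the glutaredoxin gene GRXC9, had signals of at most 11.4.

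NPR1 also raises genes of the secretory pathway, through which PR proteins leave the cell, and 2 of the 14 listed were measured and tested. The calreticulin gene CRT1B had 556 in fnr1 Columbia against 465 in wild type Columbia, and 509 in fnr1 Ws against 437 in wild type Ws (fitted 0.24 ± 0.15, SE, limma adjusted p = 0.823). CNX2, a calnexin gene, had a fitted difference of 0.19 ± 0.19 (SE, limma adjusted p = 0.914). Limma thus called 0 of the 2, with 0 at an unadjusted p under 0.05, beside 0.183% and 6.67% of all tested probe sets. Here too the fit can miss a difference held by 1 ecotype alone.

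Jasmonate signalling is often antagonistic to salicylic acid. Of 11 listed jasmonate and ethylene markers, 2 were measured, both defensin genes whose probe sets may not measure them separately. PDF1.2A had 24.8 in fnr1 Columbia against 17.5 in wild type Columbia, and 50.9 in fnr1 Ws against 75.6 in wild type Ws, and its genotype difference was not called (fitted -0.06 ± 0.24, SE, limma adjusted p = 0.988). It was higher in Ws than in Columbia, by 1.35 ± 0.24 (SE, limma adjusted p = 0.00143), as was PDF1.2B, by 1.19 ± 0.27 (SE, limma adjusted p = 0.00859). Between ecotypes limma called 8.32% of all tested probe sets. The senescence marker SAG29, below the filter, had 21.9 in fnr1 Columbia and 22.4 in wild type Columbia, and 0.73 in fnr1 Ws and 1.53 in wild type Ws.

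The likeness of whole profiles was measured by the Euclidean distance between log2 values over the 4 arrays, each centred on its own mean. PR1 and PR2 were each the nearest of all other tested probe sets to the other, at a distance of 0.90. PR5 ranked 6 in distance from PR1 (1.78) and 5 from PR2 (1.71), although seen from PR5, whose profile is flatter, PR1 ranked 8477 and PR2 ranked 6675. With 4 arrays these distances describe the profiles and carry no test.

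The named genes closest to PR1 were AT3G60420, a phosphoglycerate mutase family gene (distance 1.84), AT1G11330, a lectin-type receptor kinase gene (2.13), the cytochrome P450 gene CYP71B22 (2.19) and AT5G55450, a lipid transfer protein family gene (2.22). AT3G60420 had 94.5 in fnr1 Columbia against 13.6 in wild type Columbia, and 40.1 in fnr1 Ws against 13.4 in wild type Ws. Unlike PR1, it was thus also over 2-fold higher in fnr1 in Ws, as was AT5G55450, with a log2 difference of 1.66 in Columbia and 1.40 in Ws.

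The named genes closest to PR2 were AT1G13750, a purple acid phosphatase gene, AT4G36520, CYP71B22 and AT3G60420, at distances from 1.98 to 2.07. AT1G13750 had 43.9 in fnr1 Columbia against 18.2 in wild type Columbia, and 10.3 in fnr1 Ws against 12.7 in wild type Ws. It shared with PR2 a higher fnr1 signal in Columbia (log2 difference 1.05) and a lower one in Ws (-0.20), on a smaller scale. This likeness follows from its choice by distance to PR2. AT4G36520 had log2 differences of 0.82 in Columbia and -0.31 in Ws.

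PR5 had named genes at smaller distances. The distance grows with the size of the differences, which were smaller for PR5, so it does not compare likeness between the members. Among all tested probe sets the closest named gene ranked 6 for PR5, 7 for PR1 and 13 for PR2. CYP71B22 and AT1G11330 were both at a distance of 0.44, with AT4G38550 at 0.60 and CYP71B23, a second cytochrome P450 gene, at 0.65. CYP71B22 had 41.7 in fnr1 Columbia against 10.6 in wild type Columbia, and 15.4 in fnr1 Ws against 12.1 in wild type Ws, which gave log2 differences of 1.53 and 0.25. AT1G11330 had 97.8 in fnr1 Columbia against 24.3 in wild type Columbia, and 47.1 in fnr1 Ws against 30.2 in wild type Ws, which gave 1.78 and 0.56. Both had a large difference in Columbia and a small one of the same sign in Ws, as PR5 did. They were chosen for profiles close to that of PR5, so this likeness is no separate result.

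**Figure D4:**
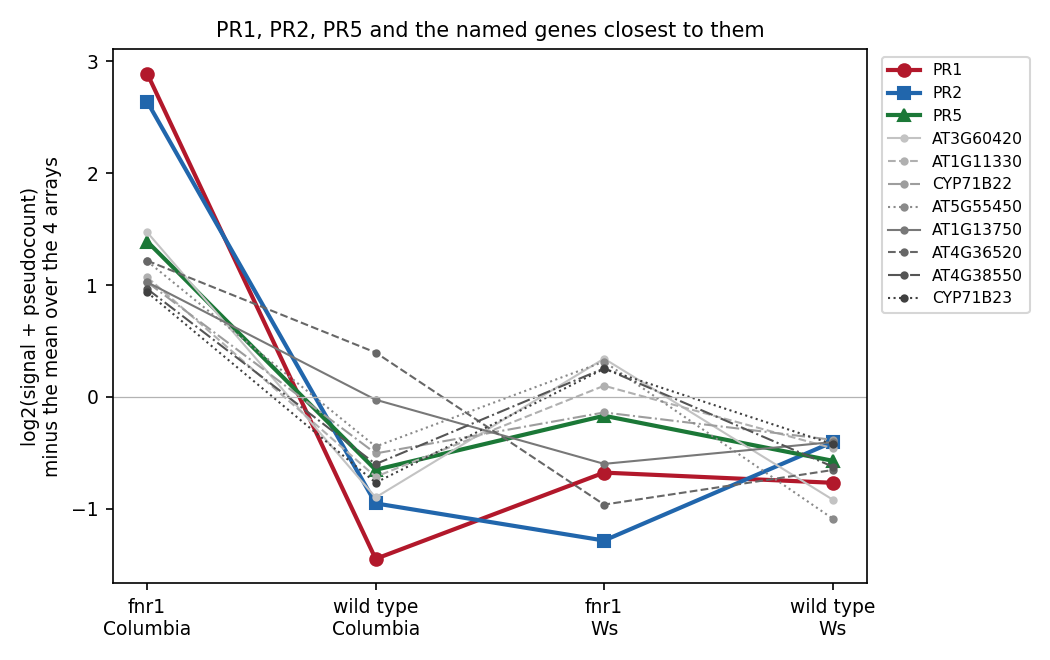
Log2(signal + pseudocount) of PR1, PR2, PR5 (coloured) and the 8 named genes nearest to any of them (grey) on the 4 arrays, each centred on its own mean. PR1 and PR2 run together with a far higher fnr1 Columbia point, and PR5 runs with CYP71B22 and AT1G11330, both at a distance of 0.44.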

How the data were processed

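The authors deposited linear intensity values that MAS5 had summarised for each probe set, per the submitters' processing notes. Nothing used here states its version, scaling target or detection calls. The members, lists and tests were chosen with earlier results of these data known. Each array was scaled to the mean of the 4 array medians over 22746 non-control probe sets (64 controls were left out), and log2(signal + 5.78) was computed. The 13648 probe sets with a mean log2 value at or above the quantile 0.4 entered a fit with limma 3.58.1 (R 4.3.3): genotype and ecotype as additive terms, 1 residual degree of freedom, a variance trend, 15.7 prior degrees of freedom, 2-sided tests and Benjamini-Hochberg adjustment at 0.05. With 1 array per group, the residual of this fit is the departure from additive genotype and ecotype terms. It is not a spread between replicates. The other ecotype stands in as the replicate of a genotype, and the other genotype as that of an ecotype. P-values and SEs rest on that residual and, with 15.7 prior degrees of freedom against 1, mostly on the variance trend over all tested probe sets. The spread may be technical, and the number of arrays limits precision. Differences within an ecotype had 1 array per group and were not tested, and the planned ecotype test of the 3 members is given as values alone, since it draws on the values that chose them.

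The annotation listed 14016 probe sets, 13513 of them with 1 gene, and left out 8730 of the others. Genes were named through the RefSeq gene table of TAIR10.1. Of each list, called genes and the 2 with the largest fitted genotype difference were named, at most 4 per list, and for each member the 4 closest named profiles. No sequences were used. Alternatives were the deposited scale, quantile and cyclic loess normalization, other pseudocounts, no filter, no variance trend, 1 term in the model and leaving out each array.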

Additional observations from a re-analysis of the deposited data

Results flagged for a closer look

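PR2 was singled out because its 2 ecotype pairs moved in opposite directions. The log2 difference between fnr1 and wild type was 3.59 in Columbia and -0.88 in Ws, each from 1 array against 1. The difference between the ecotypes was not tested.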

How the results depend on the processing

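The differences of PR1, PR2 and PR5 within each ecotype kept their sign under all 5 settings tried for them. With 4 times the pseudocount the log2 difference in Columbia was 3.42 for PR1 and 2.95 for PR2, and that of PR2 in Ws was -0.55; a larger constant shrinks differences of dim signals by construction. With no scaling of the dim wild type Columbia array, as deposited, PR5 in Columbia had 2.35. Averaged over the genotypes, the difference of Ws from Columbia was -1.32 for PR1 and -1.54 for PR2 on the deposited scale. Leaving out 1 array in turn gave -3.61 to 0.73 for PR1, -3.48 to 0.11 for PR2 and -1.76 to 0.28 for PR5. The positive values (0.73, 0.11 and 0.28) came without fnr1 Columbia, and the lowest (-3.61, -3.48 and -1.76) without wild type Columbia, where fnr1 Columbia was the only Columbia array. Those fits held ecotype as the only term, and none of these values is a test. The count of salicylic acid pathway genes called was 0 in both comparisons under every setting that kept all 4 arrays. Only 2 of the 71 listed genes passed the filter. The main fit called 0.183% of all tested probe sets between genotypes and 8.32% between ecotypes, so nothing is read from the count. No paired analysis was possible because the labels give no replicate numbers and each group has 1 array. Without detection calls, whether the lowest PR1 and PR2 signals lie above background is unknown.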

Other observations

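PR1, PR2 and PR5 were among 32 of 13648 tested probe sets (0.234%) whose value in fnr1 Columbia was at least 2-fold above each of the other 3 arrays, and PR1 ranked 1, PR2 ranked 3 and PR5 ranked 10 of the 32 by the gap to the next highest array. Of the other probe sets, 7 had a single named gene, and 22 were either not listed in the annotation or listed with more than 1 gene. The 7, named after their values were seen, were AT5G03350, a legume lectin family gene, AT3G22240, AT1G35710, CYP71B22, AT3G60420, AT1G13750 and AT2G32160. In Ws, 7 of the 32 were at least 2-fold higher in fnr1, beside 0.315% of all tested probe sets. Under 1.5-fold apart between fnr1 and wild type in Ws were 16 of the 32, and 7 were lower in fnr1 by any amount. For these last counts the share over all tested probe sets was not taken. The 32 were picked by their fnr1 Columbia value, and nothing is read from the counts.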
